A study of Mus musculus with 6 samples.

Results

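Tight junction genes were examined in the stria vascularis of mice that lack Slc26a4, which encodes the anion exchanger pendrin, and of Slc26a4+/+ controls. The set held every probe set on the array whose gene symbol was a numbered claudin, together with those of 19 further genes of tight junctions: Ocln, Marveld2, Marveld3, Lsr, Ildr1, F11r, Jam2, Jam3, Cxadr, Tjp1, Tjp3, Cgn, Cgnl1, Magi1, Magi3, Pard3, Pard6b, Patj and Mpp5. It came to 88 of 45037 probe sets and 43 of 18193 genes, of which 24 were claudins. The rule used no measured value, but the members were chosen with earlier results of these data known. Adult 129S6 mice were used, and 6 Affymetrix whole-genome expression arrays were hybridized, 3 for each genotype. Every array received the RNA of 2 pooled animals after 2 rounds of amplification. The Slc26a4-/- mice lacked the gene in every cell from conception and carried no other labelled allele. The animals were not perfused, so blood remained in the capillaries.

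Tight junctions join neighbouring epithelial or endothelial cells near their apical border and set how easily ions and water pass between the cells. Claudins are the membrane proteins that form the junction strands, and the mix of claudins decides whether a strand seals or carries a pore for cations or anions. In stria vascularis the marginal cells, which face endolymph, and the basal cells, which face spiral ligament, each form a layer sealed by tight junctions. The space between these layers is where the endocochlear potential arises, and its capillaries are closed by tight junctions of their own.

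In these data, Jam2, which encodes junctional adhesion molecule B, was the member gene with probe sets that passed the test, and they were higher in Slc26a4-/-. Among the claudins, Cldn9, Cldn11, Cldn3 and Cldn12 were bright in both genotypes, and none of the 24 claudins passed the test. Of the 88 probe sets, 3 passed an adjusted p of 0.05 as higher in Slc26a4-/- and 0 as lower, against a background over all probe sets of 1.19% higher and 0.54% lower. All 3 belonged to Jam2. With each gene represented by its probe set of highest mean signal, 0 of 43 genes passed, against 1.88% of all genes higher and 0.803% lower, so the count of member genes was near the background. At an unadjusted p of 0.05, 6 of the 43 genes passed, with Cldn23, Cldn4, Jam2 and Lsr higher and Cgn and Patj lower, against 14.9% of all genes. The median log2 fold change of Slc26a4-/- over Slc26a4+/+ was -0.02 over the 43 genes and -0.03 over all genes. Adjusted p-values are from limma over all probe sets. They set the genotype difference against the spread between pools of 2 animals, not between single animals. In tissue RNA fewer cells of a type and less RNA per cell cannot be told apart.

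The tissue carried the markers of the strial cell layers, and several things besides the junction genes moved with genotype. Of the markers that were measured, 6 of 8 for marginal cells, 6 of 8 for intermediate cells and 5 of 7 for basal cells were bright. Of 6 genes listed for hair cells and the sensory epithelium around them, 1 was above background on at least 2 arrays of a genotype. The summed signal of 10 macrophage markers was 7893 to 10498 in Slc26a4+/+ against 43217 to 44234 in Slc26a4-/-, and 8 of them rose. The marginal cell markers summed to 52897 to 70236 and to 39553 to 41543. All 8 had a negative log2 fold change, 6 with an unadjusted limma p under 0.05, and 2 passed after adjustment. Of the 8 intermediate cell markers, 2 passed as higher, Tyrp1 and Pmel, which exceeded background on 0 and 1 of the Slc26a4+/+ arrays. The 8 markers together summed to 55094 to 63077 in Slc26a4+/+ against 61729 to 62878 in Slc26a4-/-, which overlapped. Of their log2 fold changes, 6 were positive and 2 negative. Signal of the female-expressed Xist was 771 to 3358 in Slc26a4+/+ against 5530 to 5863 in Slc26a4-/-, and that of the Y-linked Eif2s3y was 639.9 to 1541 and 3.1 to 3.6, so genotype and the sex of the pooled animals cannot be told apart. The ratio of 3′ to 5′ Gapdh signal, which rises as RNA is shortened, was 2.25 to 10.5 in Slc26a4+/+ against 3.34 to 3.80 in Slc26a4-/-. Slc26a4 itself gave 793 to 1354 and 520.2 to 717 (adjusted p = 0.119), and the sources used here do not say whether its probe set lies in the deleted part.

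A gene was counted as above background when its signal exceeded that of 95% of the 44 probe sets for olfactory receptors on the same array, a level of 187 to 319. A gene was called bright when it also exceeded the 90th percentile of all probe sets on all 6 arrays. Signals of different probe sets depend on their probes and are not an order of transcript amounts. Of the 43 members, 26 were above background on all 6 arrays, 6 on some arrays and 11 on none. All 11 were claudins, so 12 of 24 claudins and 14 of 19 other genes were above background throughout.

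**Figure D1:**
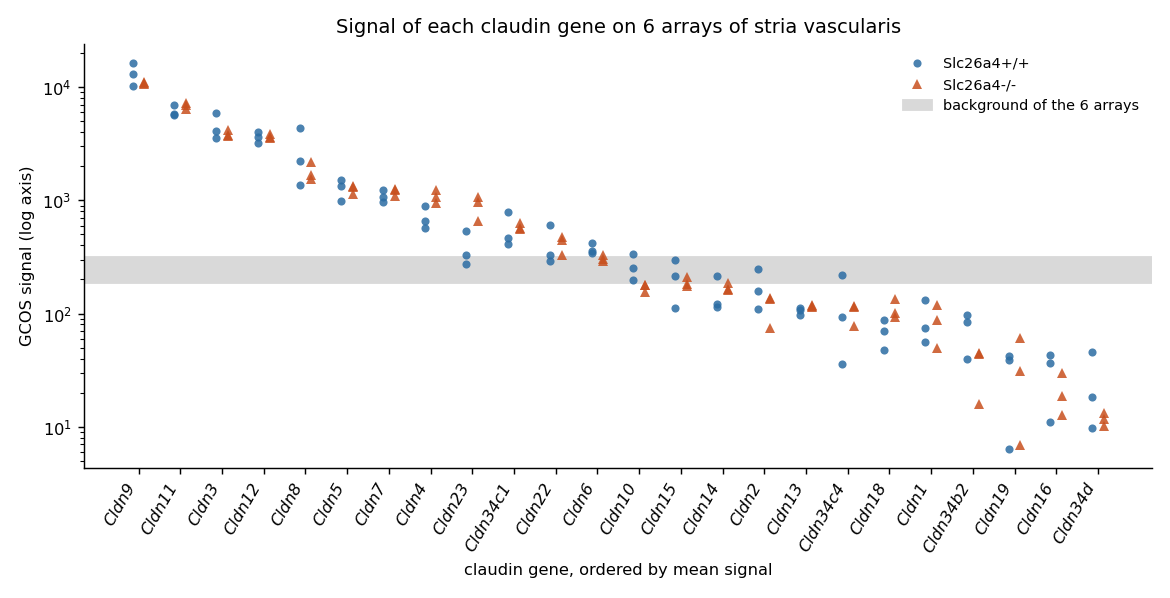
GCOS signal (log axis) of the 24 claudin genes on each array, ordered by mean signal. Circles are the 3 Slc26a4+/+ arrays, triangles the 3 Slc26a4-/- arrays, and the grey band spans the background of the 6 arrays, 187 to 319. The 4 bright claudins Cldn9, Cldn11, Cldn3 and Cldn12 stand well above the band in both genotypes. The groups of Cldn23, Cldn4 and Cldn6 do not overlap, nor do those of the dimmer Cldn10, Cldn13 and Cldn18.

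Cldn9, a claudin that limits the passage of sodium and potassium ions and is needed for hearing, gave signals of 10340.1, 13053 and 16319 in Slc26a4+/+ pools against 10822, 11237 and 10789.9 in Slc26a4-/- pools. The groups overlapped, with the highest values on 2 control arrays. The log2 fold change was -0.25 ± 0.18 (SE; adjusted p = 0.646), with a 95% interval of -0.64 to 0.14. A second Cldn9 probe set gave 2869.9, 2382 and 2109 in Slc26a4+/+ against 2591, 2954 and 2936 in Slc26a4-/-, a log2 fold change of 0.21. The 2 probe sets thus leaned in opposite directions, and neither passed the test.

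Cldn11 forms the strands of the basal cell junctions, and mice without it have a low endocochlear potential. Its signals were 6909, 5753 and 5689 in Slc26a4+/+ against 7302, 6375 and 7024 in Slc26a4-/-. The groups overlapped. On the log2 scale Slc26a4-/- was higher by 0.18 ± 0.14 (SE; adjusted p = 0.687), with a 95% interval of -0.13 to 0.49. The 7 basal cell markers, a list that includes Cldn11 and Tjp1, had a median log2 fold change of -0.10, and 0 of 7 passed.

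Cldn3, a sealing claudin of many epithelia, gave 3589, 4140.2 and 5927 in Slc26a4+/+ against 3722, 4222 and 3815 in Slc26a4-/-. Cldn12, a claudin linked to calcium transport, gave 3215, 4006 and 3625 in Slc26a4+/+ against 3591, 3632 and 3897 in Slc26a4-/-. For both, the groups overlapped and the control arrays spanned the knockout arrays. Their log2 fold changes were -0.19 ± 0.19 (SE; adjusted p = 0.768) and 0.04 ± 0.14 (SE; adjusted p = 0.942). The 95% interval of Cldn12 ran from -0.26 to 0.34. Cldn3 had 4 probe sets, all above background on all 6 arrays, with log2 fold changes between -0.25 and 0.00.

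Below the bright group were 8 claudins above background on all 6 arrays. Cldn8, which in the kidney works with Cldn4 in the collecting duct, gave 4369, 2226 and 1379 in Slc26a4+/+ against 2195, 1537 and 1669 in Slc26a4-/-. Its control arrays alone spanned the whole range, and the log2 fold change of -0.42 ± 0.35 (SE; adjusted p = 0.707) was close to its error. Cldn5, the main claudin of endothelial cells, gave 998, 1331 and 1529 in Slc26a4+/+ against 1129.7, 1338 and 1311 in Slc26a4-/-. Cldn7, an epithelial claudin, gave 974, 1232 and 1081 in Slc26a4+/+ against 1268, 1243 and 1087 in Slc26a4-/-. Both overlapped between genotypes, with log2 fold changes of -0.01 and 0.13.

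Cldn23 had the largest log2 fold change of the 43 member genes. Its signals were 535, 272 and 331 in Slc26a4+/+ against 1063, 964 and 655 in Slc26a4-/-. Every knockout array was above every control array. The log2 fold change was 1.27 ± 0.28 (SE), or 2.41-fold, with an adjusted p of 0.0582, which missed the threshold. On Slc26a4+/+ replicates 2 and 3 the signals were close to the backgrounds of those arrays, 269 and 319, so the fold rests on controls near background. It passed with the replicate number as a block in the fit (adjusted p = 0.0238), with array weights (0.00314), without probe sets below background (0.0372) and without Slc26a4+/+ replicate 1 (0.0136). It stayed uncalled with a floor of 16 or 64 (0.204 and 0.253), arrays centred on the median (0.153) and a fit without trend (0.296). Over the 19 alternatives of this probe set with an adjusted p, that p ran from 0.00314 to 0.556. Cldn23 is among the less studied claudins of epithelia.

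Cldn4, a claudin that tightens the junction to cations, gave 574, 885 and 664 in Slc26a4+/+ against 951, 1242 and 1078 in Slc26a4-/-. Again no knockout array reached down to the controls, but the highest control and the lowest knockout values lay close together. The log2 fold change was 0.64 ± 0.20 (SE), or 1.56-fold, and the adjusted p of 0.188 missed the threshold.

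The other 3 claudins above background on every array were Cldn6, Cldn22 and Cldn34c1. Cldn6, a claudin of embryonic epithelia, gave 424, 345 and 357 in Slc26a4+/+ against 302, 292 and 332 in Slc26a4-/-, which did not overlap (log2 fold change -0.28, adjusted p = 0.656). Cldn22 gave 327, 289 and 606 against 332, 445 and 477, and Cldn34c1 gave 462, 784 and 410 against 559, 634 and 572. In both the controls spanned the knockout arrays, with log2 fold changes of 0.10 and 0.15.

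Cldn10, which forms cation or anion pores according to its splice form, exceeded background on 2 Slc26a4+/+ arrays and on 0 Slc26a4-/- arrays. Its signals were 251, 196 and 333 against 177, 179 and 155, and it did not pass (adjusted p = 0.469). The 11 claudins above background on no array were Cldn1, Cldn2, Cldn13, Cldn14, Cldn15, Cldn16, Cldn18, Cldn19, Cldn34b2, Cldn34c4 and Cldn34d. They included Cldn14, a human deafness gene, at 115 to 215, and the kidney claudins Cldn16 and Cldn19. Their probe sets gave no signal beyond background. This sets no bound on the transcript amounts, since signals depend on the probes, and 0 of 11 passed. The array named 24 of the 33 protein-coding claudin genes of the RefSeq gene table, and the others were not analysed here.

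**Figure D2:**
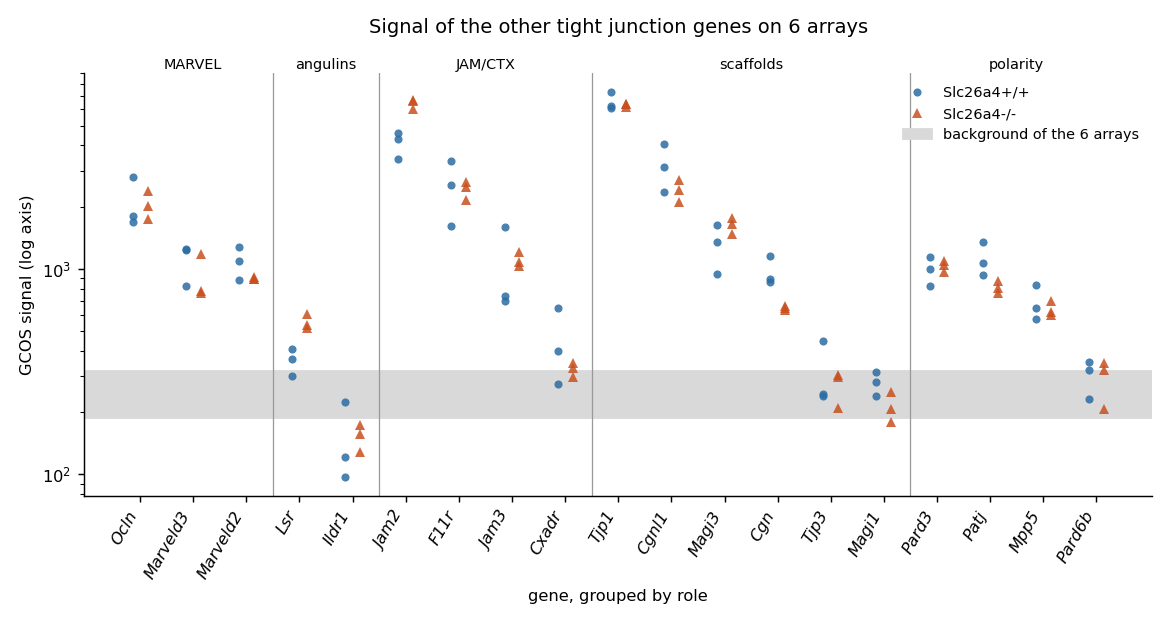
GCOS signal (log axis) of the 19 other tight junction genes on each array, grouped by role, with circles for Slc26a4+/+, triangles for Slc26a4-/- and the background of the 6 arrays in grey. In Jam2 and Lsr the 3 knockout arrays lie above the 3 control arrays, and in Cgn and Patj below them. In all the others the groups overlap.

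Occludin and its relatives span the membrane of the strand by a MARVEL domain. Ocln gave 2814, 1823 and 1702 in Slc26a4+/+ against 1750.3, 2029 and 2389.8 in Slc26a4-/-. Marveld2, or tricellulin, a human deafness gene whose protein sits where 3 cells meet, gave 1097, 883 and 1274 against 894, 915 and 896. Marveld3 gave 829, 1243 and 1256 against 786, 1178 and 763. All 3 genes overlapped between genotypes. Ocln, which was bright, had a log2 fold change of -0.01 with a 95% interval of -0.48 to 0.45, and those of Marveld2 and Marveld3 were -0.25 and -0.29 (adjusted p of 0.627 and 0.681).

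The angulins recruit tricellulin to these corners. Lsr, or angulin-1, gave 363, 408 and 300.4 in Slc26a4+/+, where it exceeded background on 2 of 3 arrays, and 605, 533 and 513 in Slc26a4-/-. The groups did not overlap, and the log2 fold change was 0.63 ± 0.19 (SE), or 1.55-fold, with an adjusted p of 0.191. Ildr1, or angulin-2, another human deafness gene, was above background on 1 of 6 arrays at signals of 97.3 to 224.5.

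Jam2 belongs to the immunoglobulin-like adhesion molecules of the junction. It is best known from endothelial cells, where it pairs with Jam3. Its probe set of highest signal, 1436568_at, was bright and gave 4280.2, 4618 and 3425 in Slc26a4+/+ against 6586, 6034 and 6687 in Slc26a4-/-. The groups did not overlap, and the log2 fold change was 0.66 ± 0.15 (SE), or 1.58-fold, with an adjusted p of 0.065. Probe set 1419288_at gave 1240.3, 1143 and 1559 against 2481, 1986 and 2813, and probe set 1449408_at gave 1162, 1173 and 1088 against 2073, 2294 and 2221. In each, every knockout array was above every control array. The first of this pair rose by 0.88 ± 0.18 (SE; 1.84-fold; adjusted p = 0.0398) and the second by 0.94 ± 0.13 (SE; 1.92-fold; adjusted p = 0.00663) on the log2 scale.

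One more Jam2 probe set that passed, 1431416_a_at, was below background on all 3 Slc26a4+/+ arrays, at 8.9, 13.5 and 7.3. It gave 269, 151 and 127 in Slc26a4-/-, where 1 array exceeded background, so no fold is given (adjusted p = 0.00629). Probe set 1431417_at was below background on all 6 arrays and did not pass (adjusted p = 0.419). All 5 Jam2 probe sets had a positive log2 fold change and no overlap between genotypes. They read 1 gene in the same 6 arrays, so they are not independent of each other. Groups also did not overlap in 26.9% of all genes above background on all 6 arrays. Each of the 3 calls was lost when some single array was left out: that of 1449408_at without Slc26a4-/- replicate 2 or 3 (adjusted p of 0.0642 and 0.0684), that of 1431416_a_at without Slc26a4-/- replicate 1 (0.06), and that of 1419288_at without the second Slc26a4+/+ replicate (0.161) or each Slc26a4-/- replicate in turn (0.185, 0.0692 and 0.231). With all arrays, 1419288_at also missed the threshold with a floor of 16 or 64 (0.134 and 0.16), arrays centred on the median (0.0532), quantile normalization (0.077) and a fit without trend (0.295). The same held for 1449408_at without trend (0.157), for 1431416_a_at with a floor of 64 (0.167), and for all 3 in a paired t-test after adjustment (0.428 to 0.453).

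**Figure D3:**
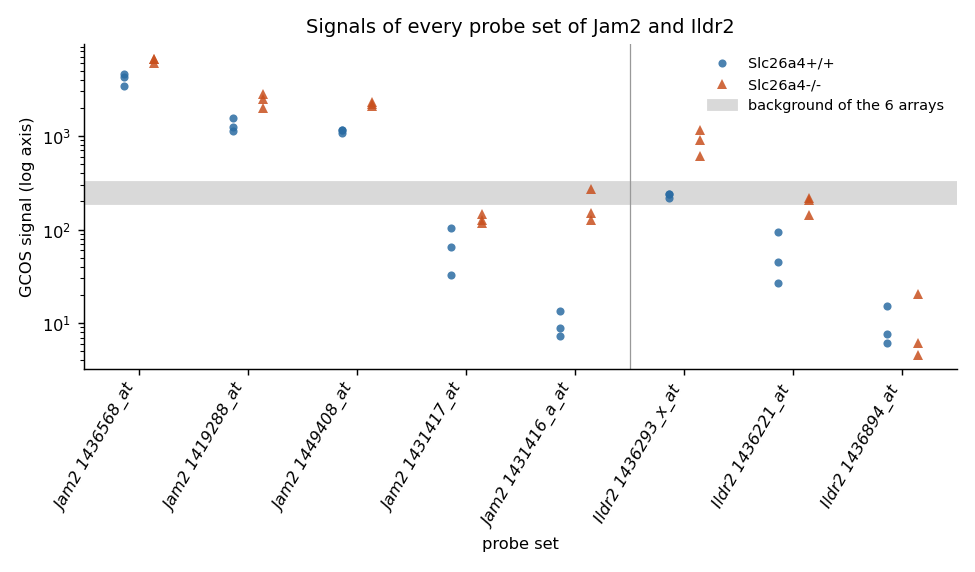
GCOS signal (log axis) of the 5 probe sets of Jam2 and, right of the line, the 3 of Ildr2, with circles for Slc26a4+/+, triangles for Slc26a4-/- and the background of the 6 arrays in grey. The groups are separate in all 5 Jam2 probe sets, of which 3 lie above the grey band, and the Slc26a4+/+ arrays of the first Ildr2 probe set lie within the band.

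Marker genes of cell types in which Jam2 may be expressed were read beside it. Of 10 endothelial markers 0 passed, their median log2 fold change was 0.43, and their summed signal was 3287 to 4490.2 in Slc26a4+/+ against 5017 to 5845 in Slc26a4-/-, with Pecam1 and Tie1 above background on no array. Cldn5, which is on that list, had a log2 fold change of -0.01. The 8 spiral ligament fibrocyte markers summed to 19110 to 22122 and to 26983 to 28832, and 4 of 8 rose. The part of endothelial cells, fibrocytes, macrophages and sex in the Jam2 difference was not tested. In a fit with the Xist signal as a covariate 0 of the 88 probe sets passed, against 27 of all 45037. Xist signal did not overlap between the genotypes, so that fit cannot tell sex from genotype.

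F11r, which encodes junctional adhesion molecule A and was bright, gave 3343, 2569 and 1619.7 in Slc26a4+/+ against 2670, 2504 and 2162 in Slc26a4-/-. Jam3, the partner of Jam2, gave 1596, 699 and 739 against 1036, 1086 and 1206. In both the control arrays spanned the knockout arrays, with log2 fold changes of 0.02 and 0.24 (adjusted p of 0.987 and 0.807). Cxadr, the virus receptor CAR, which also joins epithelial cells, gave 275, 399 and 647 against 329, 297 and 348. The log2 fold change of this probe set was -0.35, while the other 4 Cxadr probe sets had positive ones of 0.32 to 1.27. Of those 4, 1449949_a_at, with the 1.27, and 1451865_at were above background on 0 arrays, and 1452391_at on 0 control arrays. The brightest of the 4 gave 529.9, 212 and 201 against 424, 440 and 564, and 0 of the 5 passed.

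Scaffold proteins tie the strands to actin. Tjp1, which encodes ZO-1, was bright and among the most even of the members, at 7280.2, 6229 and 6070.3 in Slc26a4+/+ against 6191, 6396 and 6337 in Slc26a4-/-. The difference on the log2 scale, -0.04 ± 0.13 (SE; adjusted p = 0.933), had a 95% interval of -0.34 to 0.25. Cgnl1, or paracingulin, also bright, gave 4064, 3133 and 2382 against 2703, 2439 and 2128. Its groups overlapped, and the log2 fold change was -0.37 ± 0.20 (SE; adjusted p = 0.517).

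Cgn encodes cingulin, which links the junction to actin, myosin and microtubules. It gave 1157, 867 and 890.1 in Slc26a4+/+ against 658, 647 and 628 in Slc26a4-/-. Every knockout array was below every control array, and the log2 fold change was -0.58 ± 0.17 (SE; adjusted p = 0.152), which missed the threshold. Magi3, a scaffold with several PDZ domains, gave 1645, 1352 and 950.4 against 1661, 1767 and 1481, which overlapped (log2 fold change 0.35, adjusted p = 0.561). Its lower probe sets 1421035_a_at and 1450101_a_at, each above background on 5 of 6 arrays, had log2 fold changes of -0.45 and 0.08. Neither passed. Tjp3 and Magi1 lay near background, with signals of 179 to 449 and log2 fold changes of -0.16 and -0.40.

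The polarity proteins place the junction at the apical side. Patj gave 932, 1075 and 1351 in Slc26a4+/+ against 765, 876 and 809 in Slc26a4-/-, which did not overlap, and its log2 fold change of -0.44 ± 0.17 (SE; adjusted p = 0.339) did not pass. Pard3 gave 999, 824 and 1139.8 against 1049, 1098 and 963, and Mpp5, whose protein binds Patj, gave 836, 648 and 573 against 699, 597 and 617. Both overlapped, with log2 fold changes of 0.08 and -0.09. A second Mpp5 probe set, 1421064_at, gave 850, 456 and 814 in Slc26a4+/+ against 443, 452 and 543 in Slc26a4-/-. These overlapped too, with a log2 fold change of -0.51 (adjusted p = 0.469). The last Mpp5 probe set, above background on 1 of 6 arrays, had one of 0.21. Pard6b was above background on 5 of 6 arrays, with a log2 fold change of -0.06.

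**Figure D4:**
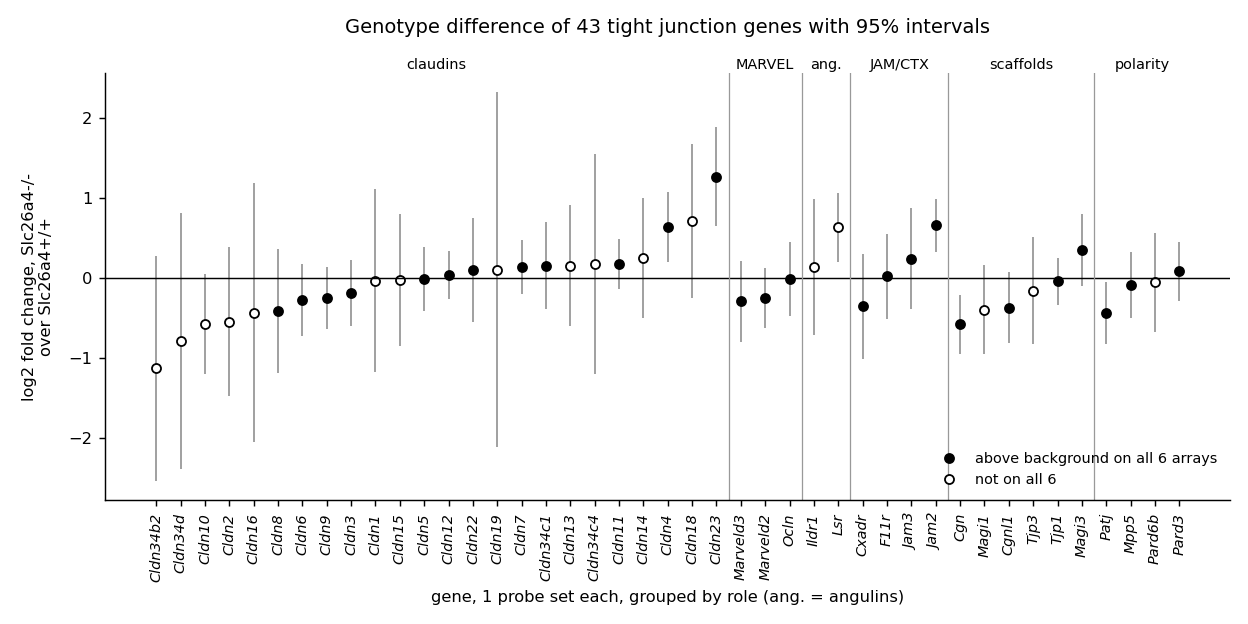
Log2 fold change of Slc26a4-/- over Slc26a4+/+ for the 43 member genes, grouped by role, with 95% confidence intervals from limma that are not adjusted for the number of genes. Filled circles are genes above background on all 6 arrays and open circles the others. Cldn23, Cldn4, Jam2 and Lsr lie above 0 and Cgn and Patj below 0 with their intervals, and 0 of the 43 passed an adjusted p of 0.05.

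Over the 26 members above background on all 6 arrays, 6 had groups that did not overlap, with Cldn4, Cldn23 and Jam2 higher and Cldn6, Cgn and Patj lower, against 26.9% of all genes above background on all 6 arrays. Of those 26, 0 passed the test in either direction. Among the 8394 genes above background on all 6 arrays, 190 were called higher (2.26%) and 120 lower. A ratio without a test was also taken, after the way the study computed folds: the mean signal of the 3 Slc26a4-/- arrays over that of the 3 Slc26a4+/+ arrays, averaged over the probe sets of each gene. The study asked in addition for Present calls, which were not used here. By a limit of 1.3 this ratio put 6 of 43 members higher and 10 lower, against 16% and 21.7% of all genes. Both counts were near their background, and they include genes above background on no array, such as Cldn1 and Cldn18.

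**Figure D5:**
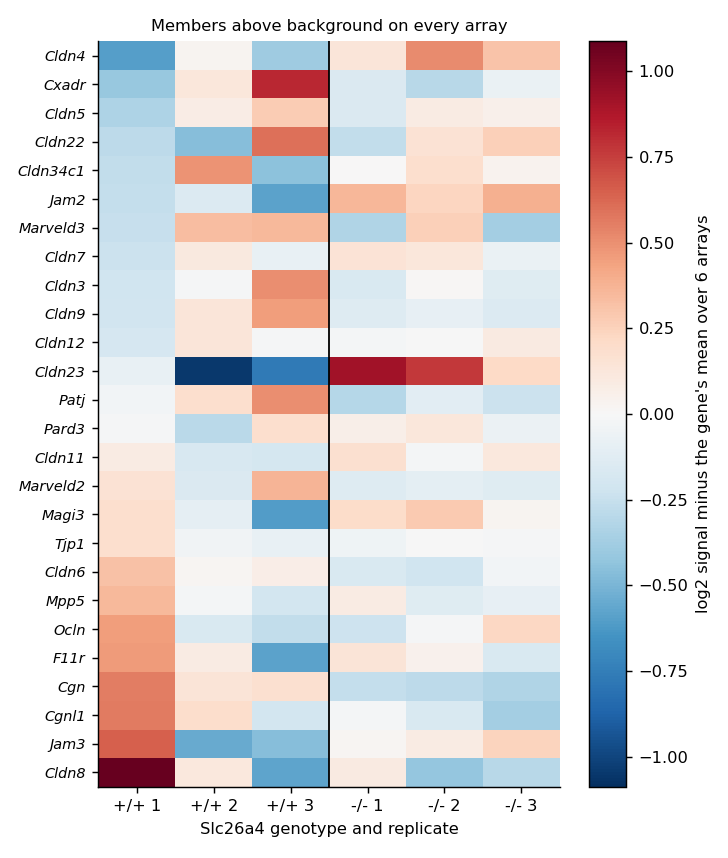
Log2 signal of the 26 member genes above background on every array, as the difference from each gene's mean over the 6 arrays, with genes ordered by the first Slc26a4+/+ replicate. Red is above and blue below the gene's mean. The 3 Slc26a4+/+ columns vary more than the 3 Slc26a4-/- columns, and Jam2, Cldn23 and Cldn4 are red in all 3 Slc26a4-/- columns.

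The members varied more among the control pools than among the knockout pools. Over the 26 genes the median SD of log2 signal was 0.32 in Slc26a4+/+ against 0.11 in Slc26a4-/-, and 25 of 26 genes were wider in Slc26a4+/+. Over the 8394 genes above background on all 6 arrays, the medians were 0.26 and 0.12, and 6790 were wider in Slc26a4+/+. Cldn8, Jam3, Cgnl1, Ocln, F11r and Tjp1 were among the 12 members highest on the first Slc26a4+/+ replicate within that group, while Cldn9, Cldn3, Cldn5, Cldn22, Cxadr and Patj were among the 9 highest on the third. These were 46.2% and 34.6% of the 26 members, against 34% and 38.2% of the 8394 genes. The first replicate had the lowest Gapdh 3′ to 5′ ratio, 2.25, and the third the highest, 10.5. The part of RNA quality in this spread was not tested.

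A wider list of 37 junction genes showed where the members' neighbours stood. Of these 33 were measured, 1 rose and 0 fell, and their median log2 fold change was 0.04. Ildr2, or angulin-3, the relative of Lsr and Ildr1, was the gene that rose. Its probe set 1436293_x_at gave 239, 217 and 238 in Slc26a4+/+, where it exceeded background on 1 of 3 arrays, and 896, 1166 and 615 in Slc26a4-/-. The groups did not overlap, and the log2 difference was 1.90 ± 0.24 (SE; adjusted p = 0.00418), against control signals at about background. It missed the threshold with a floor of 64 (0.061), without trend (0.0943), with the Xist covariate (0.278) and in a paired t-test after adjustment (0.513). A second Ildr2 probe set, below background on all 3 control arrays, did not pass (adjusted p = 0.115), and the last was below background throughout.

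Next by p-value were the angiomotins, which bind Patj and polarity scaffolds. Amotl1 had a log2 fold change of 0.44 and Amot of -0.50, and neither passed (adjusted p of 0.215 and 0.256). Of the 12 adherens junction genes, among them Cdh1 for E-cadherin, 0 passed by the probe set of highest signal. One lower probe set of Nectin3, 1457257_x_at, rose from 1079, 851 and 532 to 1998, 1684 and 1683 (log2 fold change 1.18, adjusted p = 0.0408), while the probe set of highest signal for that gene had -0.23 (adjusted p = 0.585). It was singled out after its values were seen.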

How the data were processed

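RNA of stria vascularis from 3 Slc26a4+/+ and 3 Slc26a4-/- pools was measured on 6 one-colour arrays. The authors deposited 1 signal intensity per probe set, computed in GCOS from the scans, on a linear scale already scaled between arrays. The sources used here do not state the version of GCOS. Here signals were floored at 1 (172 values), put on the log2 scale and compared with limma 3.58.1 in R 4.3.3 (lmFit, eBayes with trend, two-sided), with Benjamini-Hochberg adjustment over 45037 probe sets after 64 Affymetrix controls were left out. Gene symbols came from the platform annotation, and probe sets with several symbols were named for none. The number of arrays limits the precision. The limma fit was tested on simulated data.

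Values per array are given for members above background on all 6 arrays, with a probe set past the threshold or with an unadjusted p of 0.05. The members, lists and this rule were chosen with earlier results of these data known. Replicate numbers come from the sample titles. Deviations of same-numbered arrays from their group means correlated at 0.313, 0.165 and 0.149, so a fit with the replicate number as a block was also made. Other alternatives changed the floor, scaling, spread model, filter, probe set rule and samples, or used the methods' paired t-test on the same values.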

Additional observations from a re-analysis of the deposited data

How the results depend on the processing

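The 6 arrays limit what can be called. Out of 638 alternative values for 32 single results (fold changes of member genes, Jam2 probe sets and Ildr2), 595 stayed on the same side of the threshold, 25 lost a call, 18 gained one, of which 4 by an unadjusted p of the paired t-test, and no called value turned its sign. In 45 of them an uncalled value changed sign.

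With the replicate block, which treats same-numbered arrays as pairs, 1 member gene passed (Cldn23, adjusted p = 0.0238) in place of 0, and 4 member probe sets in place of 3. The count over all probe sets went from 778 to 832.

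Member probe sets that passed numbered 1 with a floor of 64, 1 without trend, 9 with array weights, 0 with a paired t-test after Benjamini-Hochberg and 15 before it, 0 with Xist signal as covariate, and 5 without both of the Slc26a4+/+ arrays 2 and 3, where the lone control array is assumed to vary like the knockout arrays. Leaving out 1 array gave 1 to 7, the 7 without Slc26a4+/+ replicate 1. Member genes that passed numbered 1 with quantile normalization (Jam2), 3 with array weights, 2 when dim probe sets were left out (Cldn23 and Jam2), 6 with the unadjusted paired t-test, 3 without both control arrays, 1 by the probe set of smallest p, 2 by the mean over probe sets (Cldn23 and Jam2) and 16 by the ratio of group means past 1.3, which uses neither a test nor the study's Present calls. Leaving out 1 array gave 0 to 3, the 3 without Slc26a4+/+ replicate 1 (Cldn23, Jam2 and Jam3).

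The wider junction genes that passed numbered 0 with a floor of 64, without trend, with the Xist covariate and with the adjusted paired t-test, 5 with array weights, 3 with the unadjusted paired t-test and 3 without both control arrays. Over all probe sets 456 passed with a floor of 16, 445 with a floor of 64, 448 with arrays centred on the median (359 higher and 89 lower, against 535 and 243), 114 without trend, 4084 with array weights, 0 and 3980 with the adjusted and unadjusted paired t-test, 27 with the Xist covariate and 1304 without both control arrays. Leaving out 1 array gave 219 to 1714. At the 75th percentile, 8 claudins were bright.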
